A study of Homo sapiens with 8 samples.

Results

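The C/EBP transcription factor genes examined here are *CEBPA*, *CEBPB*, *CEBPD* and *CEBPG*, 4 of the 57815 gene identifiers in the files, chosen by name for their family. They were followed by RNA-seq in 8 libraries of 2 established lines of lung adenocarcinoma, ABC1 and HCC4006, both labelled as free of mutations in *KEAP1* and *NRF2*. Each line was cultured for 16 h with 100 μM diethylmaleate (DEM) or with the vehicle DMSO, which makes 4 groups of 2 libraries, numbered 0 and 1. The labels name no transgene or knockdown in these libraries, and each line is 1 culture of origin, so a difference between lines is one between these particular cultures. The libraries of a group are biological duplicates by the study's methods, and p-values measure the spread between them.

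C/EBP proteins carry a basic region that binds DNA and a leucine zipper through which they form dimers, with one another or with other bZIP proteins such as ATF4. *CEBPA* drives terminal differentiation, including that of alveolar cells, while *CEBPB* and *CEBPD* are best known for acute phase and inflammatory transcription. *CEBPG* encodes a short protein without an activation domain that pairs with other C/EBP factors and with ATF4 at genes of the amino acid response. DEM is an electrophile that depletes glutathione and releases NRF2 from KEAP1, and the study took up CEBPB as a factor that works with NRF2 at enhancers, which makes the level of its gene under acute NRF2 activation a question for these lines.

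Levels are in FPKM, a level scaled by transcript length and library size, which is meant to make levels of different genes comparable per length. The sums of FPKM values differed by at most 1.18 times between libraries, and 12515 to 13573 genes reached 1 FPKM. Base means in the authors' deposited tables, that is, counts scaled to a common depth and averaged over a line, summed to 13786938 in ABC1 and 13957320 in HCC4006. The 6 NRF2 target genes used to check the treatment, *NQO1*, *GCLM*, *GCLC*, *HMOX1*, *TXNRD1* and *SRXN1*, were called higher with DEM in both lines, although leaving out single libraries left 2 to 5 of these calls in ABC1. Base mean divided by mean FPKM was only 1.35 in ABC1 and 1.48 in HCC4006 for *SRXN1*, where *NQO1* had 15.2 and 14.8. The FPKM of *SRXN1* is therefore read with caution. Of the 6 epithelial markers, *EPCAM* was between 234 and 401 FPKM in every library. *KRT7*, *KRT8* and *KRT18* were called lower with DEM in HCC4006, by 0.51, 0.46 and 0.40 on the log2 scale, and 4 of the 6 were lower in ABC1 at an unadjusted p under 0.05 with 0 called by limma. Over all genes tested, 10.7% were called lower in HCC4006. In ABC1, 21.9% had an unadjusted p under 0.05 by limma in either direction. The part of these marker changes in the results on DEM was not tested. Among the lung lineage markers, *NKX2-1* was between 42.4 and 47.1 FPKM in HCC4006 but between 0.502 and 0.763 FPKM in ABC1, and *SFTPB* and *SFTPC* were under 1 FPKM in all 8 libraries. The leukocyte markers *PTPRC*, *CD14* and *LYZ*, the fibroblast markers *PDGFRB* and *DCN* and the endothelial markers *VWF* and *CDH5* were also under 1 FPKM throughout, while the collagen gene *COL1A1* was between 3.58 and 7.64 FPKM and *COL1A2* was listed at 0 in ABC1 and reached 1.48 FPKM in HCC4006. As whole cultures were sequenced, fewer cells expressing a gene and less RNA per cell cannot be told apart.

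*CEBPB* and *CEBPG* rose with DEM in both lines, by between 1.52 and 2.01 times. Under alternative settings of the analysis the call of each in ABC1 was lost under 6 and kept under 5. In HCC4006 that of *CEBPG* was lost under 4 and kept under 7, and that of *CEBPB* was lost under 1 and kept under 10. *CEBPD* did not pass the test in either line. The lines differed in all 3 of these genes, most in *CEBPD*, which vehicle-treated ABC1 cells held at 13.6 times the level of HCC4006 cells. *CEBPA* was too low to be tested and its deposited values were erratic.

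**Figure D1:**
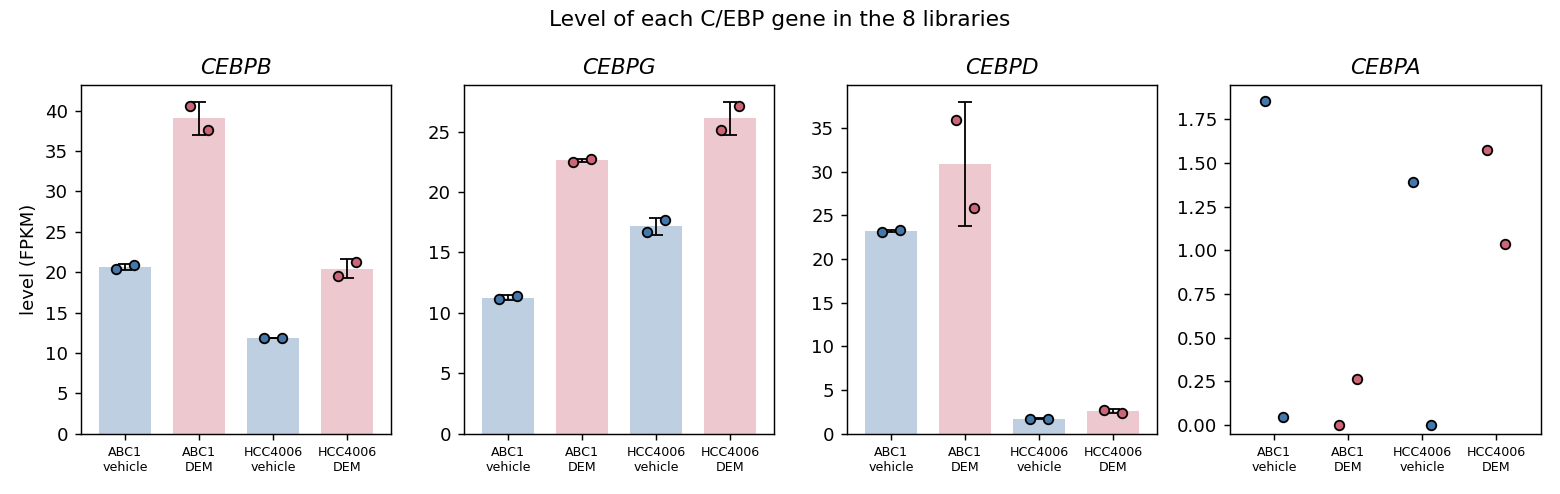
Level of *CEBPB*, *CEBPG*, *CEBPD* and *CEBPA* in FPKM (vertical axes, each with its own scale) in the 4 groups. Points are the 2 libraries of a group, bars are their mean and whiskers the SD, left out for *CEBPA*, whose points scatter between 0 and 1.85 FPKM. For *CEBPB* and *CEBPG* the DEM points of each line lie above its vehicle points.

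*CEBPB* (ENSG00000172216.4) is a gene of 1 exon on the plus strand of chromosome 20, from 48807367 to 48809205 on GRCh37. In ABC1, its level was 20.4 and 20.9 FPKM in the vehicle libraries and 40.5 and 37.6 FPKM in the DEM libraries. In HCC4006, it was 11.8 and 11.9 FPKM with vehicle and 19.6 and 21.3 FPKM with DEM. Both DEM libraries stood above both vehicle libraries in each line, and the DEM libraries of HCC4006 spanned the level of the vehicle libraries of ABC1. The order was therefore ABC1 with DEM (39.1 ± 2.05 FPKM, SD, n = 2), then ABC1 with vehicle (20.7 ± 0.355) and HCC4006 with DEM (20.4 ± 1.20), which overlapped, and HCC4006 with vehicle (11.9 ± 0.0505). The ratio of the group means was 1.89 in ABC1 and 1.72 in HCC4006.

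DEM was tested by limma on log2(FPKM + 1), fitted to every gene whose mean reached 1 FPKM in the line and adjusted by Benjamini-Hochberg. *CEBPB* rose by 0.89 in ABC1 on that log2 scale (adjusted p = 0.0436 by limma, standard error 0.12). The corresponding rise in HCC4006 was 0.74 (adjusted p = 0.00719 by limma, standard error 0.09). A pseudocount of 1 makes these changes slightly smaller than the ratios of levels. In ABC1 the call was lost whenever any of the 4 libraries was left out, with adjusted p from 0.0917 to 0.318 by limma and changes from 0.83 to 0.94, whereas in HCC4006 it was kept without each library in turn. An exact two-sided permutation test of 2 libraries against 2 cannot give a p under 0.333, so single genes were tested only through the fit across genes. Groups that do not overlap reach no more than that, and the share of all genes with such groups is not given here.

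*CEBPG* (ENSG00000153879.4) lies on the plus strand of chromosome 19, from 33864591 to 33873592 on GRCh37, with transcripts of 2 to 3 exons. It starts 71151 bases from the start of *CEBPA*, which lies on the opposite strand. Its level in ABC1 was 11.1 and 11.4 FPKM with vehicle and 22.5 and 22.7 FPKM with DEM, groups far apart compared with the spread within them. In HCC4006 it was 16.7 and 17.7 FPKM with vehicle and 25.1 and 27.1 FPKM with DEM, again without overlap. The 4 groups followed the order HCC4006 with DEM (26.1 ± 1.38 FPKM, SD, n = 2), ABC1 with DEM (22.6 ± 0.119), HCC4006 with vehicle (17.2 ± 0.718) and ABC1 with vehicle (11.3 ± 0.191), and no neighbours in that order overlapped. *CEBPG* rose by 0.94 in ABC1 (adjusted p = 0.0422 by limma, standard error 0.12), a ratio of means of 2.01. It rose by 0.58 in HCC4006 (adjusted p = 0.0121 by limma, standard error 0.09), a ratio of 1.52. In ABC1 the call was lost without any single library (adjusted p from 0.0812 to 0.311 by limma), and in HCC4006 without vehicle library 0 (0.0672), vehicle library 1 (0.0564) or DEM library 1 (0.0575), although the change itself stayed between 0.52 and 0.63.

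Taking the family as a whole, 3 members passed the minimum of 1 FPKM in each line. In ABC1, 2 of the 3 were called higher and 0 lower, where 0.768% of the 12635 genes tested were called higher and 0.435% lower. In HCC4006 the same members, *CEBPB* and *CEBPG*, were called higher and 0 lower, against 8.45% of 13542 genes called higher and 10.7% called lower. For reference, the typical gene hardly moved, with a median log2 change of -0.02 in ABC1 and of -0.03 in HCC4006.

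The 2 members that rose in both lines each have 2 promoter windows in RefSeq (GRCh38.p14), from 250 bases before to 50 bases after a transcript start, and these were searched on both strands for letters of elements tied to the responses described here. The letters were the core of the antioxidant response element bound by NRF2 (TGACNNNGC, found in 13.3% of all 35116 windows), that of the C/EBP-ATF response element (TGATGNAA, 3.62%), a C/EBP site (TTGCNNAA, 10.5%) and the cyclic AMP response element (TGACGTCA, 1.85%). In 1 of its windows *CEBPB* held the antioxidant response element core, 57 bases before the start at chr20:50190763-50190791 on the plus strand. In 1 of its windows *CEBPG* held the C/EBP-ATF core, 42 bases before the start at chr19:33374061-33374088 on the plus strand. Neither match overlapped another searched motif. They are printed 5′ to 3′ with the match in capitals, beside the C/EBP-ATF core of *ASNS* (chr7:97872459-97872486, minus strand) and that of *CHAC1* (chr15:40953252-40953279, plus strand, where the capitals hold the reverse complement), amino acid response genes described further on.
CEBPB: ggggccggcgTGACGCAGCggttgctacg
CEBPG: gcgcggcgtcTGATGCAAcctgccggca
ASNS: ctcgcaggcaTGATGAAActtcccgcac
CHAC1: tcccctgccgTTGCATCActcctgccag
A match says only that these letters are present in the window. The window of *CEBPA* held none of the 4 motifs, and no window of *CEBPD* was searched. The 2 windows of the related gene *DDIT3*, which was also called higher in both lines, held none of the 4 either. Among the amino acid response genes the C/EBP-ATF core was found in 6 of 22 windows (6 of 16 genes). The antioxidant response element core was found in 8 of 22 windows (also 6 of 16 genes).

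**Figure D2:**
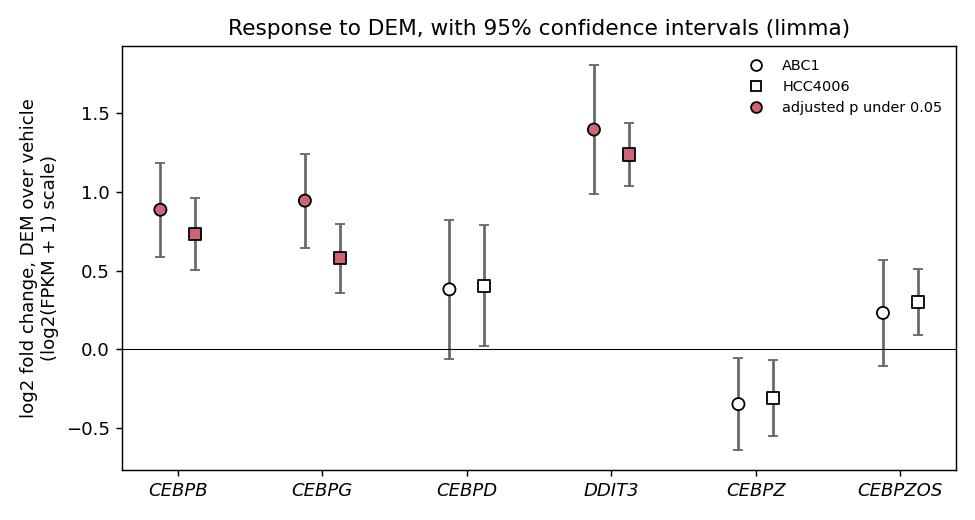
Change with DEM on the log2(FPKM + 1) scale (vertical axis) for *CEBPB*, *CEBPG*, *CEBPD* and 3 related genes, with circles for ABC1 and squares for HCC4006. Whiskers are 95% confidence intervals from limma and filled symbols have an adjusted p under 0.05, which holds for *CEBPB*, *CEBPG* and *DDIT3* in both lines.

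Turning to *CEBPD* (ENSG00000221869.4), an acute phase member of 1 exon on the minus strand of chromosome 8 (48649475 to 48650726 on GRCh37), the level in ABC1 was 23.1 and 23.3 FPKM with vehicle and 35.9 and 25.9 FPKM with DEM. DEM library 0 stood well above the other 3, which lay close together. In HCC4006, *CEBPD* was at 1.66 and 1.75 FPKM with vehicle and at 2.75 and 2.41 FPKM with DEM. Groups did not overlap in either line, which says little by itself with 2 libraries each, and the difference passed the threshold in neither. The log2 difference was 0.38 in ABC1 (95% interval -0.06 to 0.82, adjusted p = 0.280 by limma) and 0.40 in HCC4006 (95% interval 0.02 to 0.79, adjusted p = 0.122 by limma). Without DEM library 0 the difference in ABC1 was 0.15, and without DEM library 1 it was 0.61.

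Between the vehicle-treated lines, all 3 tested members were called, where 66.9% of the 13682 genes tested were called in either direction, so a call in itself says little here and the sizes are given instead. *CEBPD* was lower in HCC4006 by 3.16 on the log2 scale (adjusted p = 1.6e-06 by limma, standard error 0.16), and its level per library did not exceed 2.75 FPKM in HCC4006 or drop under 23.1 FPKM in ABC1. *CEBPB* was lower in HCC4006 by 0.75 (standard error 0.09, adjusted p = 2.3e-04 by limma). *CEBPG* differed the other way, higher in HCC4006 by 0.57 (standard error 0.09, adjusted p = 0.00101 by limma). Each of these calls was kept under all 14 alternatives tried. The lung lineage markers *NKX2-1* and *NAPSA* moved with the line as well. So did 5 of the 6 epithelial markers: *KRT7* had a mean of 25.6 FPKM in vehicle-treated ABC1 and 2080.2 FPKM in HCC4006, whereas *KRT8*, *KRT18*, *KRT19* and *EPCAM* were higher in ABC1, by 2.98, 2.88, 1.38 and 1.61 times. The part of these markers in the result was not tested. Of the leukocyte list, the lysosomal *CD68* was listed at 89.3 to 102 FPKM in HCC4006 and 1.55 to 2.54 FPKM in ABC1. Its base means were only 5.56 scaled counts in HCC4006 and 0.240 in ABC1. That is 0.0595 and 0.117 scaled counts per FPKM, where *CEBPB* had 25.6 and 25.0, so the FPKM of *CD68* is not read as its level.

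The response to DEM was also compared between the lines through the interaction of line and treatment, on which 0.636% of 13682 genes were called and 0 of the 3 tested members. For *CEBPB* the response in HCC4006 minus that in ABC1 was -0.15 (95% interval -0.46 to 0.16, adjusted p = 0.672 by limma). For *CEBPD* it was 0.02 (adjusted p = 0.982 by limma), and its sign turned on which library was left out. *CEBPG* had the largest difference of the tested members at -0.37 (95% interval -0.67 to -0.06, unadjusted p = 0.0246, adjusted p = 0.248 by limma), that is, a smaller change in HCC4006 that did not pass the adjustment. Over all genes 2068 had an unadjusted p under 0.05 on this comparison.

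The shares of *CEBPD* and *CEBPG* within the family differed between the lines, and that of *CEBPB* was higher with DEM, as a description that was not tested. Summed over the 4 members, the level was 55.7 and 56.5 FPKM in ABC1 with vehicle, 98.99 and 86.5 FPKM with DEM, 31.5 and 31.3 FPKM in HCC4006 with vehicle and 49.0 and 51.8 FPKM with DEM. *CEBPB* made up 36.1% to 37.999% of that sum in the 4 vehicle libraries and 39.9% to 43.5% in the 4 DEM libraries. *CEBPD* made up 29.9% to 41.9% in ABC1 but 4.65% to 5.61% in HCC4006. *CEBPG* made up 19.7% to 26.2% in ABC1 but 51.2% to 56.4% in HCC4006. Accordingly, the ratio of *CEBPB* to *CEBPG* ranged from 1.66 to 1.83 over the ABC1 libraries and from 0.673 to 0.786 over those of HCC4006. In ABC1 the ratio of *CEBPD* to *CEBPB* was 1.13 and 1.11 with vehicle and 0.887 and 0.688 with DEM. By FPKM, *CEBPB* was thus the more abundant of the pair only in the DEM libraries. Over all ABC1 libraries the mean was 29.9 FPKM for *CEBPB* and 27.1 FPKM for *CEBPD*. The base means were 748 and 801 scaled counts, so the 2 measures ordered the pair differently. *CEBPD* is the shorter gene, so scaling these counts by gene length would not put it under *CEBPB*. The order of this pair in ABC1 is therefore not settled, and shares and ratios between genes hold for the FPKM values only.

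**Figure D3:**
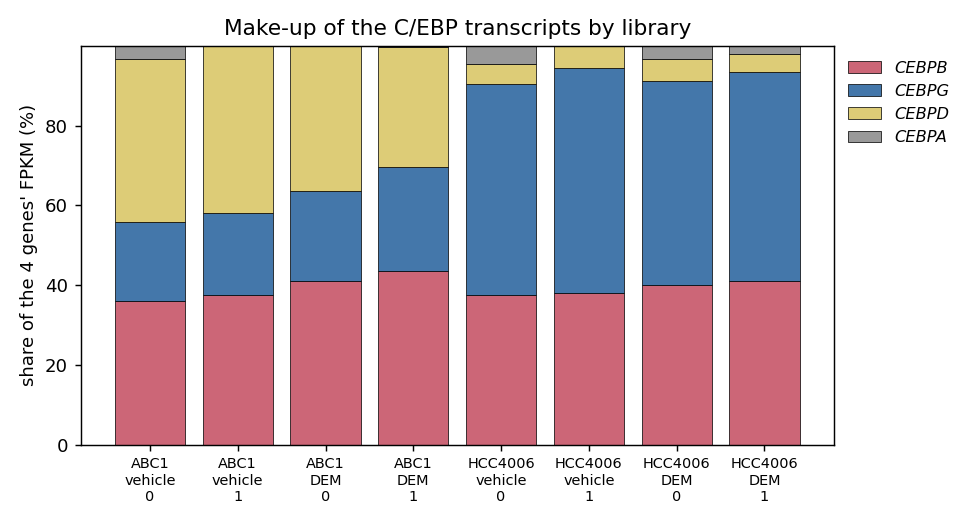
Share of the summed FPKM of the 4 C/EBP genes (vertical axis, percent) taken by each gene in each of the 8 libraries, named by line, treatment and number. *CEBPB* takes 36.1% to 37.999% in the vehicle libraries and 39.9% to 43.5% in the DEM libraries, and *CEBPD* takes 29.9% to 41.9% in ABC1 and 4.65% to 5.61% in HCC4006.

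*CEBPA* (ENSG00000245848.2), a gene of 1 exon on the minus strand of chromosome 19 (33790840 to 33793440 on GRCh37), had 1.85 and 0.0476 FPKM in the vehicle libraries and 0.0014 and 0.261 FPKM in the DEM libraries of ABC1. In HCC4006 the values were 1.39 and 2.3e-04 FPKM with vehicle and 1.57 and 1.03 FPKM with DEM. The 2 libraries of a group differed by more than an order of magnitude in 3 of the 4 groups, so no mean or fold change is given. The authors' base mean ordered the lines otherwise, at 38.5 scaled counts in ABC1 and 3.96 in HCC4006, a ratio of 9.71, while the mean FPKM was lower in ABC1. Dividing base mean by mean FPKM gave 71.1 for *CEBPA* in ABC1 and 3.97 in HCC4006. The same quotient was 25.0 and 25.6 for *CEBPB*, 29.6 and 30.3 for *CEBPD*, and 57.3 and 59.8 for *CEBPG*, near equal between the lines. No direction between lines is therefore stated for *CEBPA*, and a limma fit without the minimum of 1 FPKM gave it an adjusted p of 0.694 (ABC1) and 0.636 (HCC4006). *CEBPA-DT* (ENSG00000267296.2), a divergent transcript that starts beside *CEBPA* on the opposite strand, had 1.35 to 1.62 FPKM in the libraries of ABC1 and 0.0611 to 0.235 FPKM in those of HCC4006, with base means of 6.94 and 0.239 scaled counts.

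**Figure D4:**
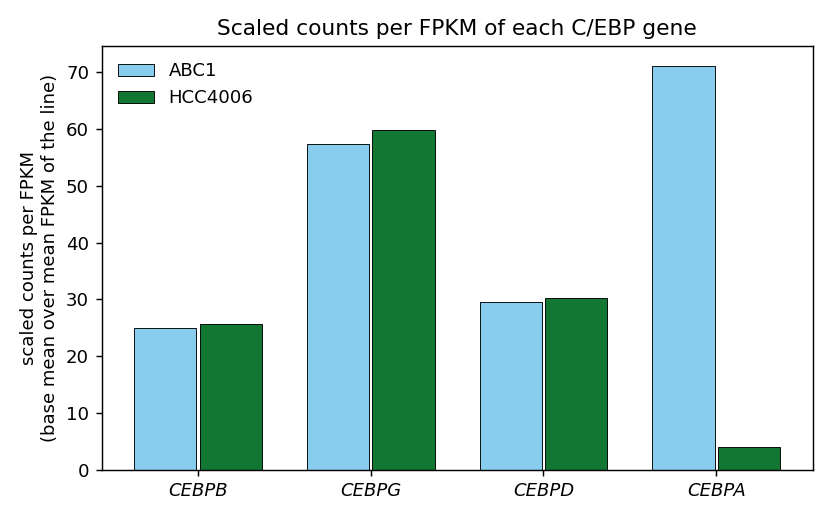
Base mean of the authors' table divided by the mean FPKM of the line (vertical axis, scaled counts per FPKM) for each C/EBP gene, in ABC1 and HCC4006. The 2 bars of *CEBPB*, *CEBPG* and *CEBPD* are near equal, whereas *CEBPA* has 71.1 in ABC1 and 3.97 in HCC4006.

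Related genes of the family were described in the same way. *DDIT3* (ENSG00000175197.6) encodes CHOP, a stress-induced C/EBP protein that pairs with other members and keeps them from their usual sites. It was at 16.7 and 17.1 FPKM with vehicle and 53.0 and 39.9 FPKM with DEM in ABC1, and at 19.4 and 21.1 FPKM with vehicle and 48.4 and 49.6 FPKM with DEM in HCC4006. Thus its DEM libraries lay above its vehicle libraries in both lines, and with DEM its FPKM exceeded that of every C/EBP member in HCC4006. *DDIT3* rose by 1.40 in ABC1 (adjusted p = 0.0365 by limma, standard error 0.17) and by 1.24 in HCC4006 (standard error 0.08, adjusted p = 0.00136 by limma). Leaving out any ABC1 library except DEM library 1 ended the call there, with adjusted p of up to 0.286 by limma. *CEBPZ*, a nucleolar protein of another family despite its name, was at 38.3 and 40.2 FPKM with vehicle and 31.4 and 29.8 FPKM with DEM in ABC1 and showed log2 differences of -0.35 (adjusted p = 0.176) and -0.31 (adjusted p = 0.0763) in ABC1 and HCC4006 by limma. Its neighbour *CEBPZOS*, on the opposite strand and overlapping it, had differences of 0.23 (adjusted p = 0.380) and 0.30 (adjusted p = 0.0613). *CEBPE*, a myeloid member, was listed at 0 in all 8 libraries.

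The library kit kept strand, but the strand setting of the counting is not given in the sources used here. If strand was not used, reads of *CEBPB* and of *CEBPB-AS1*, which overlaps its start on the opposite strand (48801135 to 48808035 on GRCh37), cannot be told apart, and the same applies to *CEBPZ* and *CEBPZOS*.

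The amino acid response genes were listed by name as genes induced by ATF4 and its partners through C/EBP-ATF elements. The search above found the core of that element in only 6 of 16 of them. With DEM, 6 of 19 were called higher in ABC1 and 13 of 19 in HCC4006, and 0 were called lower in either line. Over all genes tested, 0.768% and 8.45% were called higher. All 6 called in ABC1 were called in HCC4006 too: *ASNS*, *CHAC1*, *PSAT1*, *SLC3A2*, *SLC7A11* and *TRIB3*. Their list had a median log2 change of 0.59 in ABC1 and 0.62 in HCC4006. *SLC7A11*, the cystine transporter and also an NRF2 target, went from 7.97 and 7.82 FPKM to 51.2 and 51.1 FPKM in ABC1 and from 6.02 and 6.33 FPKM to 48.1 and 47.1 FPKM in HCC4006. It had the largest change of the list in both lines, 2.55 in ABC1 (adjusted p = 0.00428 by limma) and 2.76 in HCC4006 (adjusted p = 1.3e-04 by limma). *ASNS*, asparagine synthetase, was at 31.9 and 39.9 FPKM with vehicle and 71.1 and 77.6 FPKM with DEM in ABC1, a change of 1.04 (adjusted p = 0.0482 by limma). *CHAC1*, which degrades glutathione, rose by 1.41 in ABC1 and by 0.85 in HCC4006, and *TRIB3*, a pseudokinase induced under stress, by 0.98 and 1.05. In HCC4006, *CTH*, which makes cysteine from cystathionine, went from 9.50 and 9.23 FPKM to 22.0 and 23.5 FPKM, a change of 1.20 (adjusted p = 0.00187 by limma), and *SLC7A5*, a transporter of large neutral amino acids, rose by 1.02. Without any single library the count in ABC1 was 1 or 2, and that in HCC4006 was between 9 and 12. In the model of all 8 libraries, 13 were called higher in each line.

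The bZIP genes whose proteins can pair with C/EBP factors or share their sites behaved less uniformly. In ABC1, 0 of 20 were called higher by limma and 2 were called lower, *JUN* and *BATF*. At an unadjusted p under 0.05, 10 of the 20 were higher and 4 lower. Among the 20 was *FOSL1*, with a mean of 0.212 FPKM with vehicle and 1.88 FPKM with DEM in ABC1. It met the minimum there only through its DEM libraries, so it is no support for an increase. In HCC4006, 10 of 21 were called higher and 1, *JUNB*, lower. In the model of all 8 libraries, 7 were called higher in each line, so the contrast between 0 and 10 rests on the separate fits. Median log2 changes of the list were 0.33 and 0.42. Over all genes tested, 0.768% were called higher and 0.435% lower in ABC1, and 8.45% and 10.7% in HCC4006, while 21.9% of the genes in ABC1 had an unadjusted p under 0.05 in either direction. *JUN*, a subunit of AP-1, was at 19.7 and 17.8 FPKM with vehicle and 5.83 and 6.61 FPKM with DEM in ABC1, a fall of 1.45 on the log2 scale (adjusted p = 0.0226 by limma). *BATF*, a partner of JUN proteins, was at 60.1 and 68.4 FPKM and then at 31.5 and 31.8 FPKM, with a log2 change of -0.995 (adjusted p = 0.0422 by limma). Neither was called in ABC1 without vehicle library 0 or vehicle library 1, and leaving out DEM library 0 or DEM library 1 left 1 call. In HCC4006 the largest increase was that of *MAFG*, a small MAF protein that pairs with NRF2, from 13.6 and 12.02 FPKM to 42.8 and 43.2 FPKM, a change of 1.67 (adjusted p = 7.9e-04 by limma). *ATF3*, a stress-induced partner of C/EBP proteins, followed with 1.33, then *FOSL1* with 0.9985 and *MAFK* with 0.76. The count of 10 became 5 without DEM library 0, 5 without vehicle library 1, 7 without vehicle library 0 and 8 without DEM library 1.

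A pair of genes in that list were singled out after their values were seen, because they encode the main partner of CEBPG and NRF2 itself. *ATF4* was at 249 and 292 FPKM with vehicle and 365 and 430 FPKM with DEM in ABC1, a difference of 0.55 that did not pass (adjusted p = 0.132 by limma). In HCC4006 it rose from 188 and 202 FPKM to 339 and 322 FPKM, by 0.76 (adjusted p = 0.00285 by limma). *NFE2L2*, the gene of NRF2, differed by 0.68 in ABC1 (adjusted p = 0.107) and rose by 0.45 in HCC4006 (adjusted p = 0.0147), both by limma.

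**Figure D5:**
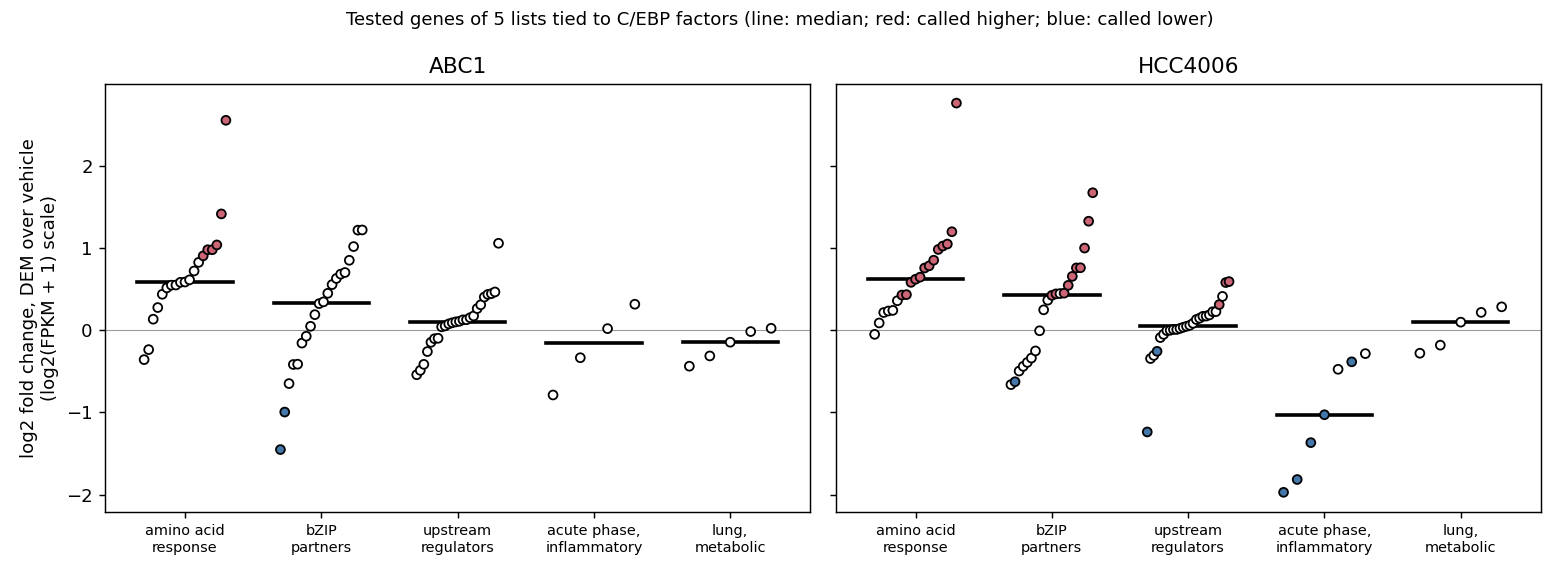
Change with DEM on the log2(FPKM + 1) scale (vertical axis) for the tested genes of 5 lists tied to C/EBP factors, in ABC1 (left) and HCC4006 (right). Each point is a gene, sorted by value within its list, black lines are list medians, and coloured points passed the test. The amino acid response genes have medians of 0.59 and 0.62, and 5 acute phase and inflammatory genes are called lower in HCC4006.

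Acute phase and inflammatory target genes of C/EBP factors were little expressed: 20 of the 30 had a mean under 1 FPKM in both lines. In ABC1, 4 passed the minimum and 0 were called by limma, with 1 lower at an unadjusted p under 0.05, a share near that of all genes (median change -0.16). Among the 4 was *S100A8*, with a mean of 2.30 FPKM with vehicle and 0.877 FPKM with DEM. It met the minimum only through its vehicle libraries, so these ABC1 counts are not read as a result. The most abundant was *S100A9*, a calcium-binding protein of inflammation, at 257 and 519 FPKM with vehicle and 197 and 425 FPKM with DEM, so that library number separated the values more than treatment did. *PTGS2*, the inducible cyclooxygenase, was at 11.6 and 17.6 FPKM with vehicle and 12.5 and 16.9 FPKM with DEM in ABC1, with overlapping groups. In HCC4006, 7 were tested, 5 were called lower and 0 higher, and the median change was -1.03, where 10.7% of all genes tested were called lower. There *PTGS2* fell from 24.8 and 27.99 FPKM to 6.03 and 5.91 FPKM, a log2 change of -1.97 (adjusted p = 6.8e-04 by limma). The chemokine *CCL2* fell from 708 and 646 FPKM to 271 and 253 FPKM, a log2 change of -1.37 (adjusted p = 7.1e-04 by limma). *CXCL8*, a chemokine for neutrophils, and *IL6* changed by -1.82 and -1.03, and the fifth gene was the protease inhibitor *SERPINA1* at -0.38. Leaving out vehicle library 0, DEM library 0 or DEM library 1 of HCC4006 reduced the 5 calls to 3, and leaving out vehicle library 1 to 4.

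Genes that act upstream of C/EBP factors, such as receptors and kinases of the interleukin 6 pathway and proteins that turn C/EBP factors over, showed 0 calls by limma among 24 tested in ABC1, with 4 higher and 2 lower at an unadjusted p under 0.05 (median change 0.10), a share near the 21.9% of all genes. *CALR*, the chaperone calreticulin and the most abundant of them there, had a log2 difference of 0.04. In HCC4006, 3 of 26 were called higher and 2 lower (median change 0.05). The receptors *IL6R*, *LIFR* and *OSMR* rose by 0.59, 0.58 and 0.31 (adjusted p = 0.0273, 0.0264 and 0.0412 by limma). *CALR* fell in HCC4006, from 664 and 646 FPKM to 551 and 544 FPKM, by 0.26 on the log2 scale (adjusted p = 0.0312 by limma). *TRIB2*, whose protein promotes degradation of C/EBPα, went from 10.1 and 7.97 FPKM to 5.04 and 1.98 FPKM, a log2 change of -1.24 (adjusted p = 0.0493 by limma). The 3 increases became 2 without vehicle library 0 and 0 without any other library of HCC4006, and the 2 decreases became 1 without DEM library 0 and 0 without the others. Shares of 3 and 2 in 26 also lie near those over all genes.

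Lung and metabolic target genes gave 0 calls by limma in both lines, among 5 tested in each. At an unadjusted p under 0.05, 2 were lower in ABC1, and 2 were higher and 2 lower in HCC4006, where 36.8% of all genes had such a p. Surfactant genes were nearly silent, and 14 of the 19 genes had a mean under 1 FPKM in both lines. *LPCAT1*, an enzyme of surfactant lipid synthesis, had log2 differences of 0.02 in ABC1 and -0.28 in HCC4006, and *SCD*, a fatty acid desaturase, -0.15 and -0.18. The study followed the enhancers of 4 genes in cells with activated NRF2 or tied them to CEBPB: *NOTCH3*, *FAM20B*, *ZC3H12A* and *C5AR1*. These gave 0 calls by limma among 4 tested in ABC1 and 3 tested in HCC4006, where *C5AR1* was under the minimum. Only 1 of them, *ZC3H12A* in HCC4006, had an unadjusted p under 0.05. The study had picked all 4 from genes outside its DEM-inducible set, which it defined in these 2 lines from the same libraries. An absence of increases with DEM was therefore fixed by that choice and is no separate result. *FAM20B*, a xylose kinase, was at 30.8 and 32.6 FPKM with vehicle and 36.6 and 37.6 FPKM with DEM in ABC1, and at 12.7 and 12.5 FPKM with vehicle and 11.6 and 11.1 FPKM with DEM in HCC4006. Its log2 differences were 0.22 (adjusted p = 0.335) and -0.14 (adjusted p = 0.325) by limma. *NOTCH3*, a Notch receptor, differed by -0.14 in ABC1 and 0.19 in HCC4006, and *ZC3H12A*, an RNase that limits inflammation, by -0.27 and -0.46. *C5AR1*, the complement C5a receptor, was between 0.938 and 2.30 FPKM in ABC1 and under 1 FPKM in HCC4006.

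Finally, the genes most like each member were found by Pearson's correlation of log2(FPKM + 1) over the 8 libraries, among 13682 genes. The libraries fall into 2 lines and 2 treatments, so such correlations follow those few contrasts and are given as a description. *CEBPB* was most like *CYP4F3* (0.996), *RNF24* (0.993) and *NADK2* (0.993). *CEBPD* was most like *STK38*, *TBC1D17* and *PHLPP2* (all between 0.997 and 0.998), which were higher in ABC1 as well. *CEBPG* was most like *GCLC* (0.992), *TFE3* (0.990) and *LIN37* (0.986). The best for *CEBPA* were lower, *HNRNPA3P6* (0.916), *HERC2* (0.874) and *LCMT1-AS1* (0.866), and rest on the erratic values given above. Between members, the correlation was 0.79 for *CEBPB* with *CEBPD*, 0.31 for *CEBPB* with *CEBPG* and -0.33 for *CEBPD* with *CEBPG*.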

How the data were processed

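Polyadenylated RNA was sequenced with a strand-specific kit. The authors deposited an FPKM value per gene and library and, for each line, a table with base means (a signal: counts scaled to a common depth, averaged over the line) and the columns of their own comparison (fold change, standard error, statistic and p-values), which were not used. The paper's methods name TopHat and Cufflinks on hg19, whereas the submitters' processing notes list cutadapt 1.15, STAR 2.5.3a, Cuffnorm, HTSeq and DESeq2, so it is not settled which aligner made the FPKM values. The libraries of the *NRF2* knockdown experiment were not analysed here.

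Symbols were found for 55534 of 57815 identifiers. *CEBPA-AS1*, *CEBPB-AS1*, *G6PC* and *PECAM1* were not matched, and *CARS* was matched as *CARS1*. Genes whose mean reached 1 FPKM were tested by limma 3.58.1 (R 4.3.3), with a trend of variance on mean, on the log2(FPKM + 1) scale and called at a Benjamini-Hochberg adjusted p under 0.05. The DEM response was fitted for each line alone, and the lines and their responses in a model of all 4 groups. The steps were tested on simulated data. No counts per library were used, so counting error could not be given an interval. The members, the gene lists and the tests were chosen with earlier results of these data known. Named genes are the members, their relatives and, for each list and line, up to 4 called genes with the largest change or, where fewer than 2 were called, the 2 most abundant, of which 1 is not reported here. Alternatives were a pseudocount of 0.1, no minimum, no trend, scaling by the median of ratios, a replicate block, a model of all 8 libraries, leaving out each library, and a correction for GC content chosen after seeing the data. Promoter sequences are from RefSeq (GRCh38.p14) and positions from GENCODE on GRCh37.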

Additional observations from a re-analysis of the deposited data

Results flagged for a closer look

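The response to DEM differed between the lines, by the interaction term of limma with Benjamini-Hochberg adjustment, for 3 genes of the lists that were expressed in both lines. The response in HCC4006 minus that in ABC1 was -1.99 for *PTGS2* (adjusted p = 0.0388), 0.92 for *CTH* (adjusted p = 0.0357) and 1.11 for *JUN* (adjusted p = 0.0371), all on the log2 scale. These calls were lost under some of the 14 alternatives: *PTGS2* was called under 5 of them, and *CTH* and *JUN* under 4 each. *CTH* was at 40.6 and 42.7 FPKM with vehicle and 51.2 and 49.9 FPKM with DEM in ABC1. The same term was -1.52 for *CCL2* (adjusted p = 0.0209 by limma), but *CCL2* was at 0, 0, 0 and 0.236 FPKM in the ABC1 libraries, where it could not fall, so this value restates its fall in HCC4006 and is no comparison of responses.

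The base mean of *CEBPA* in ABC1, 38.5 scaled counts in the authors' table, stood out because the gene was under the minimum of 1 FPKM in that line and was not tested. No library has a count of its own in that table, so the value could not be compared between DEM and vehicle.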

How the results depend on the processing

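Of the 150 values of *CEBPB*, *CEBPD* and *CEBPG* under alternatives, 130 kept their direction and their side of the threshold, 17 fell out of the threshold and 3 reversed. The line differences kept both throughout. By limma, *CEBPB* and *CEBPG* in ABC1 changed by 0.89 and 0.94 without the minimum (adjusted p = 0.117 and 0.110) and by 0.89 and 0.94 without the trend (0.0718 and 0.0713). Without a library the changes in ABC1 ranged from 0.83 to 0.94 for *CEBPB* and from 0.93 to 0.96 for *CEBPG*, with every call lost. In HCC4006 they were 0.74 and 0.58 without the minimum (0.0621 and 0.0824), and *CEBPG* ranged from 0.52 to 0.63 without a library. The difference of *CEBPD* between the lines' responses reversed to -0.21 without ABC1 DEM library 1, to -0.0014 without HCC4006 vehicle library 0 and to -0.047 without HCC4006 DEM library 0, and ranged from -0.21 to 0.25 without a library. The causes were not tested.

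Counts of genes called moved more. In ABC1, 97 higher and 55 lower became 0 and 0 without the minimum (3883 genes had an unadjusted p under 0.05), 27 and 6 without the trend, 158 and 93 with scaling by the median of ratios, 216 and 140 with the GC correction, 738 and 756 in the model of all 8 libraries, and 10 to 51 and 8 to 18 without a library. In HCC4006, 1144 and 1447 became 177 and 193 without the minimum, 706 and 847 in the model of all 8 libraries, and 290 to 464 and 344 to 564 without a library. For the difference in response, 42 higher and 45 lower became 11 and 9 with a pseudocount of 0.1, 173 and 230 without the minimum, and 0 to 17 and 2 to 27 without a library.

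With a replicate block the counts were 1185 and 1163 in ABC1 and 5 and 8 for the difference in response. Deviations of same-numbered libraries correlated at 0.258 in ABC1 and 0.0544 in HCC4006. With 2 pairs per line and no label that ties them, the libraries share only a number, and the replicate block changed no call of a member. It called 15 amino acid response genes higher and 1 lower in ABC1 and 13 higher in HCC4006, and 9 and 11 bZIP genes higher.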
